A study of Mus musculus with 8 samples.

Results

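The peaks of H3K27me3 along mouse chromosome 11 are described here. They were taken as every peak whose chromosome column read chr11 in the 5 deposited peak lists, which gave 16447 of the 208616 peaks in all. AstroEGFR 1 contributed 2514 of them, AstroEGFR 3 contributed 316, PT 1 contributed 5381, PT 3 contributed 2533 and PT 4 contributed 5703. Chromosome 11 was chosen by its number of peaks per Mb, which was high in every list, so that density is given as a description and was not tested.

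H3K27me3, the trimethylated form of lysine 27 of histone H3, is written by Polycomb repressive complex 2 (PRC2) and marks genes that are kept silent, among them many regulators of development. Over clusters of developmental genes the mark can form broad domains, whereas elsewhere it is found as short stretches around promoters. Mouse chromosome 11 is a gene-rich chromosome that carries the Hoxb cluster of homeobox genes, which pattern the embryo along its axis and are classical Polycomb targets, as well as Egfr, Trp53, Nf1, the glial gene Gfap and the gene for the PRC2 subunit Suz12.

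The mark was profiled by chromatin immunoprecipitation and sequencing at 2 stages of gliomagenesis, to ask whether it is redistributed between them. AstroEGFR cells (n = 2, replicates 1 and 3) were C57BL/6 astrocytes of the cerebral cortex from day P5, null for Ink4a/Arf, transduced with a retrovirus for a constitutively active human EGF receptor and kept below passage 10. PT cells (n = 3, replicates 1, 3 and 4) were glioma propagating cells, also below passage 10, grown out of gliomas that such C57BL/6 cells had formed in CD1 Nude mice. Both groups therefore shared the Ink4a/Arf-null background and the receptor transgene, and PT cells were cultures of tumour cells that had passed through an immunodeficient host. The culture conditions also differed. In the paper's methods, astrocytes were grown in medium with fetal bovine serum. Glioma propagating cells were grown on laminin in neurobasal medium with supplements, EGF and a fibroblast growth factor. Stage, passage through a host and culture medium therefore cannot be told apart here. The labels do not say which astrocyte culture gave rise to which tumour, nor that same-numbered libraries came from 1 culture. The paper describes astrocyte batches profiled together with the tumours that arose from them. The tests here used no such pairing, so p-values measure only the spread between these libraries.

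The full lists held between 3722 and 66279 peaks, and the number of reads behind each is unknown. AstroEGFR 3 was by far the shortest, with 3722 peaks against 34021 in AstroEGFR 1. Peaks on unplaced sequences divided the lists into 2 sets, since there were 179 in AstroEGFR 1, 194 in PT 1 and 236 in PT 4 but 0 in AstroEGFR 3 and PT 3. The sets coincide with replicate numbers 1 and 3, PT 4 falling with number 1, so the set of a list and any culture or batch that the numbers stand for cannot be told apart. Each set held libraries of both stages, and comparisons of stages are also given within sets. The absence of a peak means that the threshold of the peak caller was not reached, and does not show that the mark was absent. Where 5 values are given without names, they follow the order AstroEGFR 1, AstroEGFR 3, PT 1, PT 3 and PT 4.

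Chromosome 11 held more peaks per Mb than the other autosomes in all 5 lists. Its density was 20.6 and 2.59 peaks per Mb in AstroEGFR 1 and 3, and 44.2, 20.8 and 46.8 in PT 1, 3 and 4. Over the remaining autosomes it was 13.3, 1.42, 24.99, 15.98 and 25.6 peaks per Mb in the same order. The ratio of these densities was 1.55 and 1.83 in AstroEGFR 1 and 3, and 1.77, 1.30 and 1.83 in PT 1, 3 and 4, with a mean of 1.65 ± 0.229 (SD over the 5 libraries). PT 3 stood lowest, AstroEGFR 1 next and the other 3 lists close together above them, and the values of the 2 stages overlapped. Among the 19 autosomes chromosome 11 ranked 2, 2, 2, 3 and 1 in peak density. The chromosome above it was 10 in AstroEGFR 1 and PT 1, 12 in AstroEGFR 3, and 10 and 9 in PT 3, and chromosome 11 was the only autosome among the 3 densest in all 5 lists.

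**Figure D1:**
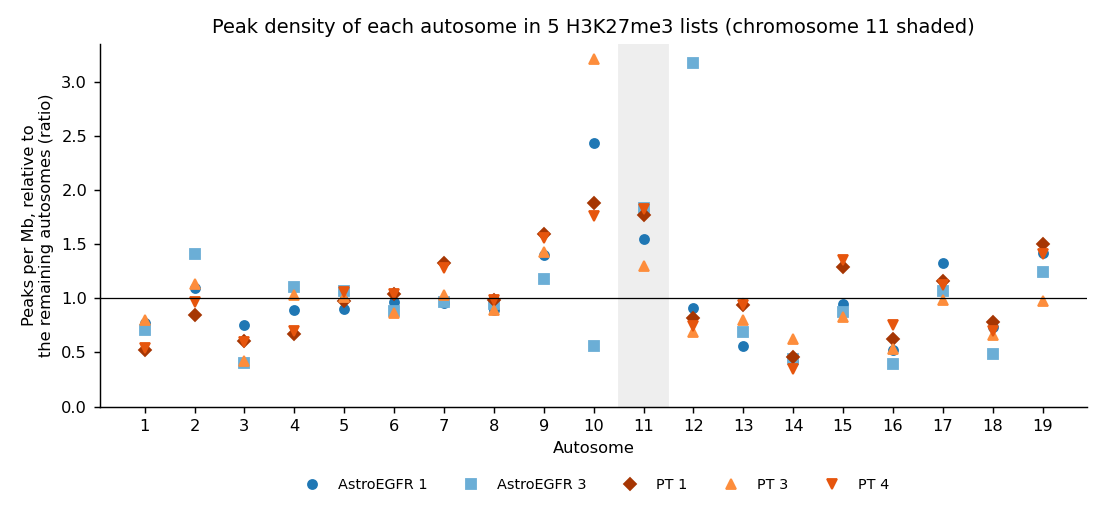
Peak density of each autosome (x axis) as a ratio to the density on the remaining autosomes (y axis), with 1 point per library. Chromosome 11, shaded, sits between 1.30 and 1.83 in all 5 lists, whereas chromosome 10 runs from low in AstroEGFR 3 to the highest point of PT 3.

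Protein-coding genes are also dense on this chromosome. The RefSeq table of GRCm38.p6, a later build than that of the peaks and used only for the number of genes per chromosome, placed 1609 of 20665 autosomal protein-coding genes on it. That was 7.79% of the genes on 4.94% of the autosomal span, or 13.2 genes per Mb against 8.12 on the other autosomes, which was rank 2 of 19. The peaks were also counted per protein-coding gene, a scaling chosen after the data were seen. On that scale chromosome 11 exceeded the other autosomes in AstroEGFR 3, PT 1 and PT 4 but not in AstroEGFR 1 and PT 3. It held 1.56 and 0.196 peaks per gene in AstroEGFR 1 and 3, and 3.34, 1.57 and 3.54 in PT 1, 3 and 4. The other autosomes held 1.64, 0.175, 3.08, 1.97 and 3.15. The mean ratio moved from 1.65 to 1.02, and the rank of the chromosome to 11, 3, 9, 13 and 7. Across the 19 autosomes, peak density and gene density ran together with Spearman coefficients of 0.688, 0.567, 0.679, 0.775 and 0.725 in the 5 lists. These coefficients are descriptions over 19 points that share the same reads and the same gene table.

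Covered length, the sum of peak widths, was higher on chromosome 11 in every list. It grows with the number of peaks per Mb by which the chromosome was chosen, so it is not independent of that choice. Peaks covered 3.69 and 0.352 Mb of the chromosome in AstroEGFR 1 and 3, and 7.96, 2.55 and 7.86 Mb in PT 1, 3 and 4. As a share of its span this was 3.03%, 0.289%, 6.53%, 2.09% and 6.45%, beside 1.96%, 0.127%, 3.38%, 1.56% and 3.25% on the other autosomes. AstroEGFR 3 and PT 4 had the largest excess, of 2.27 and 1.99 times, and PT 3 the smallest, of 1.34 times.

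The share of the marks that fell on chromosome 11 did not separate the 2 stages. It held 7.44% of the autosomal peaks in AstroEGFR 1 (95% Wilson interval 7.16 to 7.72), 8.68% in AstroEGFR 3 (7.81 to 9.63), 8.41% in PT 1 (8.20 to 8.63), 6.33% in PT 3 (6.10 to 6.57) and 8.67% in PT 4 (8.46 to 8.89). The PT mean was 7.80 ± 1.28% (SD, n = 3) and the AstroEGFR mean 8.06 ± 0.876% (SD, n = 2), a difference of -0.255 percentage points that 8 of 10 assignments of the group labels equalled or passed (exact permutation test, two-sided, p = 0.8, Benjamini-Hochberg adjusted p = 1 over 6 tests). For covered length the means were 8.33 ± 1.57% and 8.99 ± 2.22%, a difference of -0.657 points (exact permutation p = 0.7, adjusted p = 1). The smallest p that 2 libraries against 3 allow is 0.1, so neither test could have passed 0.05.

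Within the sets of lists the difference had opposite signs. With unplaced sequences in the list, PT 1 and PT 4 exceeded AstroEGFR 1 by 0.970 and 1.23 percentage points in the share of peaks. Without them, PT 3 minus AstroEGFR 3 was -2.35 points. Covered length behaved alike, with differences of 1.70 and 1.93 points in the first set and -4.03 points in the second. Leaving out AstroEGFR 3 turned the pooled differences to 0.365 points for peaks and 0.910 points for covered length, and leaving out PT 3 turned them to 0.481 and 0.248 points. The direction of the difference between stages therefore rested on which libraries were compared.

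Within the chromosome the peaks were unevenly spread, and the distal part held most of them. Beyond 50 Mb lay 83.5% of the peaks of AstroEGFR 1, 86.1% of AstroEGFR 3, 79.6% of PT 1, 79.6% of PT 3 and 80.5% of PT 4, although the stretch up to 50 Mb makes up 41.0% of the span. The density rose from 8.32 to 29.1 peaks per Mb across this boundary in AstroEGFR 1, from 0.880 to 3.78 in AstroEGFR 3, from 21.9 to 59.5 in PT 1, from 10.3 to 28.0 in PT 3 and from 22.2 to 63.8 in PT 4. Every list showed the step, and the boundary was chosen after the values were seen. The span counts from position 1, and it includes the unsequenced stretch with which each mouse chromosome begins in the assembly.

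In 1 Mb bins, to which each peak was assigned by its midpoint, the median bin held 13 and 1 peaks in AstroEGFR 1 and 3, and 35, 15 and 38 in PT 1, 3 and 4. Bins of the other autosomes held 4, 0, 10, 5 and 10. Of the 122 bins of the chromosome, 97, 69, 107, 104 and 110 held at least 1 peak, or 79.5%, 56.6%, 87.7%, 85.2% and 90.2%, beside 68.5%, 36.7%, 75.4%, 73.2% and 77.3% elsewhere. More of the bins of chromosome 11 than of those elsewhere thus held a peak in every list. The share of occupied bins rises with the density by which the chromosome was chosen, so it is not independent of that choice. How far the excess lay in a few bins was not tested. In AstroEGFR 1 the 20 fullest bins held 50% of the peaks, and the same share needed 13 bins in AstroEGFR 3 and 27, 24 and 27 bins in PT 1, 3 and 4. A total of 68 bins held peaks in all 5 lists and 11 were empty in all 5, which is 9.02% of the bins against 16.7% on the other autosomes.

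**Figure D2:**
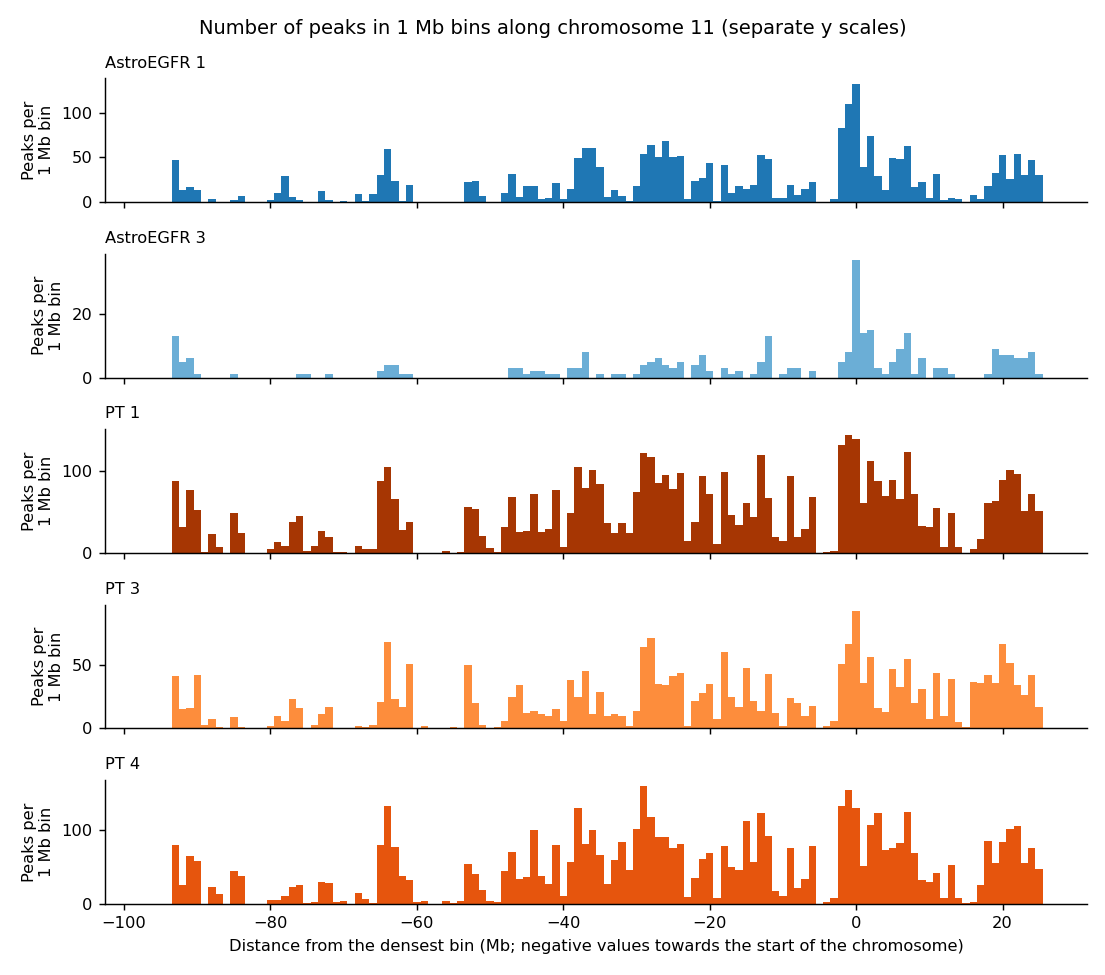
Number of peaks in each 1 Mb bin of chromosome 11 for each library (y axis, separate scales), against distance in Mb from the densest bin (x axis). The same blocks of high and empty bins recur in the 5 libraries, with 132, 37, 138, 93 and 130 peaks in the bin at distance 0.

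The profiles had a shared shape. Spearman coefficients of the bin counts, over 122 bins that share the underlying sequence, were highest between PT 1 and PT 4 (0.959) and between AstroEGFR 1 and PT 1 (0.921). They were lowest between AstroEGFR 3 and PT 4 (0.755), and AstroEGFR 3, in which the median bin held 1 peak, gave the lowest values with every other list. The longest stretches without a peak in any list were chr11:12481435-16159641 (3.68 Mb), chr11:37051693-40284592 (3.23 Mb) and chr11:90564643-92958488 (2.39 Mb). The last of these lay inside the peak-rich distal part, shortly before the densest bin. The sparsest bins that still held a peak, 41-42, 111-112, 36-37, 25-26 and 47-48 Mb, had between 0 and 3 peaks in any list and 0 in both AstroEGFR lists.

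The bin with the highest mean density over the libraries, after scaling to 1000 autosomal peaks of each list, lay at 96-97 Mb. It held 132 and 37 peaks in AstroEGFR 1 and 3, and 138, 93 and 130 in PT 1, 3 and 4. Per 1000 peaks this was 3.91, 10.2, 2.16, 2.32 and 1.98, so both AstroEGFR lists stood above all 3 PT lists. Among 2478 autosomal bins it ranked 2 in AstroEGFR 1 and 3 in AstroEGFR 3, but 34, 57 and 44 in PT 1, PT 3 and PT 4. Its raw number of peaks was nevertheless about equal in AstroEGFR 1, PT 1 and PT 4.

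Covered length showed the same bin from another side. Peaks filled 27.02% and 3.93% of it in AstroEGFR 1 and 3, and 31.5%, 18.5% and 29.5% in PT 1, 3 and 4. The peaks were also high in their lists, with a median score percentile of 63.8, 66.7, 62.5, 63.3 and 54.3. The score percentile is the rank of a peak's score within its own list, so that the middle of a list lies at 50. The bins that followed in density were 95-96, 98-99, 103-104 and 94-95 Mb, and 4 of the 5 densest bins thus lay between 94 and 99 Mb.

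Within the densest bin the fullest window of 100 kb was that from 96100001 to 96200000. There, peaks covered 80.8 and 19.1 kb in AstroEGFR 1 and 3, and 87.9, 83.1 and 87.2 kb in PT 1, 3 and 4. The covered length was broken into different numbers of peaks, 21 and 17 in AstroEGFR 1 and 3, and 7, 20 and only 3 in PT 1, 3 and 4. A count of peaks and a covered length thus ranked the libraries differently over one domain. The window from 96400001 to 96500000 differed between the sets of lists: 32.2 kb were covered in AstroEGFR 1, 34.0 kb in PT 1 and 28.0 kb in PT 4, against 0 kb in AstroEGFR 3 and 2.35 kb in PT 3.

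**Figure D3:**
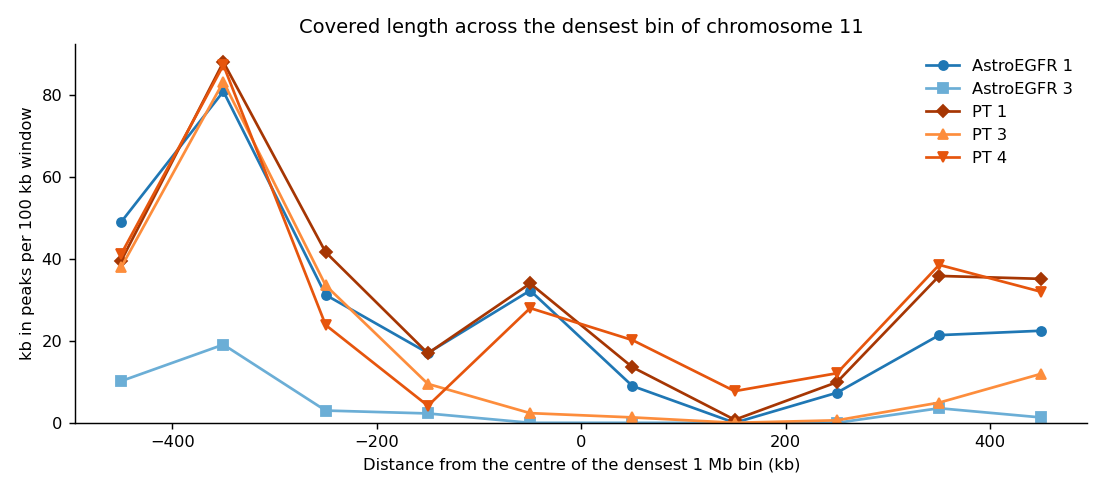
Length in peaks (y axis, kb) in each 100 kb window of the bin at 96-97 Mb, against distance from the centre of the bin (x axis, kb), with 1 line per library. At -350 kb, 4 libraries reach 80.8 to 87.9 kb and AstroEGFR 3 reaches 19.1 kb.

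The widest region of the chromosome that carried the mark in all 5 libraries lay in this window, at chr11:96110552-96168848, and was 58297 bp wide. Peaks covered 92.0% and 22.9% of it in AstroEGFR 1 and 3, and 97.6%, 93.1% and 96.5% in PT 1, 3 and 4. They did so with 13, 11, 5, 12 and 2 peaks. The domain was close to complete in 4 lists of both stages and was present as scattered fragments in AstroEGFR 3. This region was chosen after its values were seen. Positions are on mm9, of which no annotation was used here, and no gene is named for any region.

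Bins whose densities did not overlap between the stages were common over all autosomes. On chromosome 11, all 3 PT libraries stood above both AstroEGFR libraries in 22 of 122 bins (18.0%), against 15.5% of all autosomal bins, and below them in 12 bins (9.84%), against 6.9%. Together these were 34 bins, where the percentage over all autosomes was 22.4. Both shares were near the background, with somewhat more bins of each direction on this chromosome. With both directions together, the gap was wider with scores of at least 100 (34.4%, against 23.9% over all autosomes). It was also wider in the upper 50% of each list (33.6%, against 20.9%). Of the 22 bins in which PT stood higher, 14 held no peak in AstroEGFR 3 and 4 held none in either AstroEGFR list. AstroEGFR 3 was the highest library in 12 of the 12 bins in which PT stood lower, and a single peak of that list weighed 0.275 per 1000. Without AstroEGFR 3, 58 bins did not overlap (47.5%, against 43.9% over all autosomes), without AstroEGFR 1 there were 79 (64.8%, against 58.7%), and without PT 3 there were 64 (52.5%, against 37.4%).

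Where PT stood higher, the bin at 81-82 Mb had the largest difference, with 15 and 0 peaks in AstroEGFR 1 and 3, and 61, 48 and 112 in PT 1, 3 and 4. Scaled to 1000 peaks, the PT mean was 1.29 and the AstroEGFR mean 0.222. Next came 114-115 Mb, with 18, 1, 61, 42 and 85 peaks. These bins were moderately filled in AstroEGFR 1 and close to empty in AstroEGFR 3. The bin at 43-44 Mb held 22, 0, 56, 50 and 54 peaks, that at 109-110 Mb held 5, 1, 48, 39 and 53, and that at 67-68 Mb held 54, 4, 121, 64 and 159, the highest count of PT 4. Of these 5 bins, only 109-110 Mb was scarce in both AstroEGFR lists and had at least 39 peaks in each PT list.

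Where PT stood lower, the largest differences were at 96-97 Mb and in the 2 bins after it. The bin at 97-98 Mb held 39, 14, 61, 36 and 51 peaks, which per 1000 was a mean of 0.876 in PT and 2.50 in AstroEGFR. That at 98-99 Mb held 74, 15, 112, 56 and 106. In neither did the raw number of peaks fall in all PT lists below AstroEGFR 1, so the lower density was relative to list length. The remaining bins were 84-85 Mb, with 48, 13, 67, 43 and 91 peaks, and 3-4 Mb, with 47, 13, 87, 41 and 79.

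The bin at 3-4 Mb contains the first peaks of the chromosome, which stood apart from all others. Between the first peak start, at 2999995, and 3100314 there were 14 and 9 peaks in AstroEGFR 1 and 3, and 16, 9 and 12 in PT 1, 3 and 4. They covered 74340, 73022, 73991, 73519 and 75661 bp, which is nearly the same length in every list although the lists differed widely in total. Of the covered length of chromosome 11 this was 2.01% and 20.8% in AstroEGFR 1 and 3, and 0.929%, 2.89% and 0.963% in PT 1, 3 and 4. Of the 5 autosomal peaks of AstroEGFR 3 that were at least 10 kb wide, 3 lay in this stretch.

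The stretch held the 3 strongest regions shared by all 5 libraries, chr11:3030314-3049066, chr11:3049331-3074972 and chr11:3075019-3100314, in which the best peak of every library lay at or above percentile 99.0. Peaks covered at least 90.4%, 97.2% and 91.7% of these regions in every list. Over the autosomes, 3594 regions were at least 5 kb wide, 339 of them on chromosome 11, and only 6 (0.167%) were covered to at least 80% in all 5 lists. The other 3 were chr1:90175444-90189365, chr1:90193883-90207796 and chr17:39979651-39986001. Without the first 0.15 Mb from the first peak, the share of autosomal covered length on chromosome 11 was 7.28%, 8.55%, 9.04%, 6.34% and 9.27%, and the difference between the stages changed from -0.657 to 0.303 points. Input libraries were not analysed here, and the part of input signal in this stretch was not tested.

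Peaks of chromosome 11 ranked somewhat higher within their lists than those of other autosomes. Their median score percentile was 52.3 and 51.1 in AstroEGFR 1 and 3, and 53.7, 49.7 and 53.3 in PT 1, 3 and 4, beside 49.8, 48.9, 49.6, 49.98 and 49.7. The difference was positive in 4 of 5 libraries and -0.234 in PT 3, with a mean of 2.43 ± 1.68 percentile points (SD, n = 5). In an exact sign-flip permutation test (two-sided), 4 of 32 flips gave a mean as large (p = 0.125, adjusted p = 0.375), where the smallest possible p is 0.0625. With the same number of peaks taken from each list, the mean was 0.724 points (exact sign-flip permutation p = 0.688). Peaks above percentile 90 made up 9.03%, 10.8%, 11.7%, 9.63% and 11.6% of the peaks of the chromosome, beside 10.0%, 9.11%, 9.83%, 9.99% and 9.86% elsewhere. In AstroEGFR 1 the middle of the distribution was therefore raised while its upper end was not.

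Widths differed little. The median peak of chromosome 11 had a width of 1060 and 785 bp in AstroEGFR 1 and 3, and of 854, 683 and 824 bp in PT 1, 3 and 4, against 1028, 762, 804, 684 and 789 bp on the other autosomes. The log2 ratio was positive in 4 of 5 libraries, with a mean of 0.05 ± 0.03 (SD, n = 5), or 1.03-fold (exact sign-flip permutation p = 0.125, adjusted p = 0.375). PT 3 was the exception for width as it was for score. Its sign depended on the background: with chromosomes 10 and 12 left out of the other autosomes, PT 3 was 1.24 percentile points and 0.02 log2 units above them, and all 5 libraries were positive in both measures (exact sign-flip permutation p = 0.0625 for each, the smallest possible).

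Neither measure differed between the stages beyond the spread of the libraries. The difference in median percentile was 2.48 ± 2.36 points in PT (SD, n = 3) and 2.35 ± 0.212 in AstroEGFR (SD, n = 2), 0.137 points apart (exact permutation p = 1, adjusted p = 1). The log2 width ratio was 0.05 ± 0.05 in PT and 0.04 ± 0.00094 in AstroEGFR (exact permutation p = 1, adjusted p = 1). Within the sets of lists the percentile difference rose by 1.55 and 1.14 points from AstroEGFR 1 to PT 1 and PT 4, and from AstroEGFR 3 to PT 3 it dropped by 2.43 points.

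**Figure D4:**
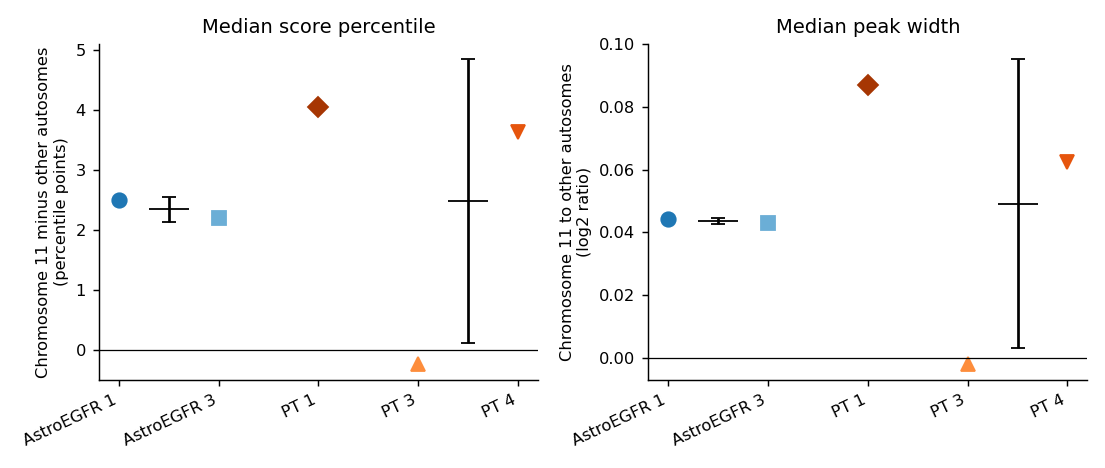
Median score percentile on chromosome 11 minus that on the other autosomes (left, percentile points) and log2 ratio of median peak widths (right), with 1 point per library and the mean ± SD of each group in black between its points. PT 3 lies at or just below 0 in both panels and the other 4 libraries lie above it.

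Broad peaks were rare. Those of at least 10 kb numbered 12 and 3 in AstroEGFR 1 and 3, and 43, 6 and 42 in PT 1, 3 and 4. As shares of the peaks of chromosome 11 these were 0.477%, 0.949%, 0.799%, 0.237% and 0.736%, beside 0.460%, 0.0601%, 0.665%, 0.0960% and 0.526% on the other autosomes. The share was higher on chromosome 11 in all 5 lists, but the Wilson intervals of the 2 shares overlapped in every list except AstroEGFR 3, where 3 such peaks gave 0.323 to 2.75% against 0.0165 to 0.219%. The start of the chromosome described above held 3, 3, 2, 3 and 3 of these peaks. Without that stretch 9 were left in AstroEGFR 1 (0.36%, below the share elsewhere) and 0 in AstroEGFR 3. The 41, 3 and 39 left in PT 1, 3 and 4 (0.764%, 0.119% and 0.685%) were still above the shares elsewhere. In PT 3 the value lay within the Wilson interval of the other autosomes (0.0694 to 0.133%). Intervals for chromosome 11 without the stretch are not given, and no stretch was left out on the other autosomes. The widest peak of the chromosome was chr11:97388795-97436374 in PT 1 (47580 bp) and chr11:96120756-96168715 in PT 4 (47960 bp). In AstroEGFR 1, AstroEGFR 3 and PT 3 it was a peak of 23848, 23055 and 23044 bp that began between 3049343 and 3051929.

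Spacing between peaks differed widely between the libraries. The median gap from one peak to the next on the chromosome was 1908 and 30705 bp in AstroEGFR 1 and 3, and 1158, 3971 and 1333 bp in PT 1, 3 and 4. Gaps shorter than 1 kb made up 37.6%, 12.1%, 46.7%, 27.2% and 44.1% of all gaps. Peaks of AstroEGFR 1, PT 1 and PT 4 were thus often close neighbours, those of PT 3 less so although its list was as long as that of AstroEGFR 1 on this chromosome, and those of AstroEGFR 3 were mostly isolated.

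To compare the libraries, peaks that overlapped or touched were merged into union regions, and each region was assigned to the libraries with at least 1 bp of a peak in it. Chromosome 11 held 7466 of the 98945 autosomal regions. Of these, 53.4% were marked in 1 library (95% Wilson interval 52.3 to 54.5), 25.5% in 2, 13.2% in 3, 6.24% in 4 and 1.62% in 5. On the other autosomes the shares were 57.6%, 22.6%, 12.3%, 6.20% and 1.29%. Regions of 1 library were fewer here than on 17 other autosomes, and those of 2 libraries more frequent. Width grew with sharing, from a median of 654 bp for regions of 1 library through 1133, 2021 and 3860 bp to 8129 bp for regions of all 5. The same medians elsewhere were 654, 1103, 1851, 3494 and 7122 bp, so the medians of regions shared by 2 or more libraries were larger on chromosome 11. A region of more libraries is merged from more peaks, and a wide region is met more easily by each list. Width therefore grows with sharing in part by construction. The part of peak density in the difference from other autosomes was not tested.

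Which libraries shared the regions differed more from other autosomes than how many did. Regions of PT 1 and PT 4 together numbered 1463, or 19.6% (18.7 to 20.5), beside 14.0% elsewhere, a ratio of 1.402. Regions of PT 4 alone numbered 1529 (20.5%, against 17.5%) and those of PT 1 alone 1354 (18.1%, against 16.9%). By contrast, regions of PT 3 alone made up 10.49%, against 16.1%, and those of AstroEGFR 1 alone 3.99%, against 6.66%. The trio AstroEGFR 1, PT 1 and PT 4, the set of lists with unplaced sequences, shared 634 regions (8.49%, against 7.26%). The shares that held both PT 1 and PT 4 were thus mostly larger on chromosome 11, and those of PT 3 alone and AstroEGFR 1 alone were smaller; the intervals cover counting error only, and the difference was not tested over libraries. The density ratio of chromosome 11, by which it was chosen, was also higher in PT 1 and PT 4 (1.77 and 1.83). It was 1.30 in PT 3 and 1.55 in AstroEGFR 1. These shares are therefore not independent of that choice. The parts of density and of list length in them were not tested.

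**Figure D5:**
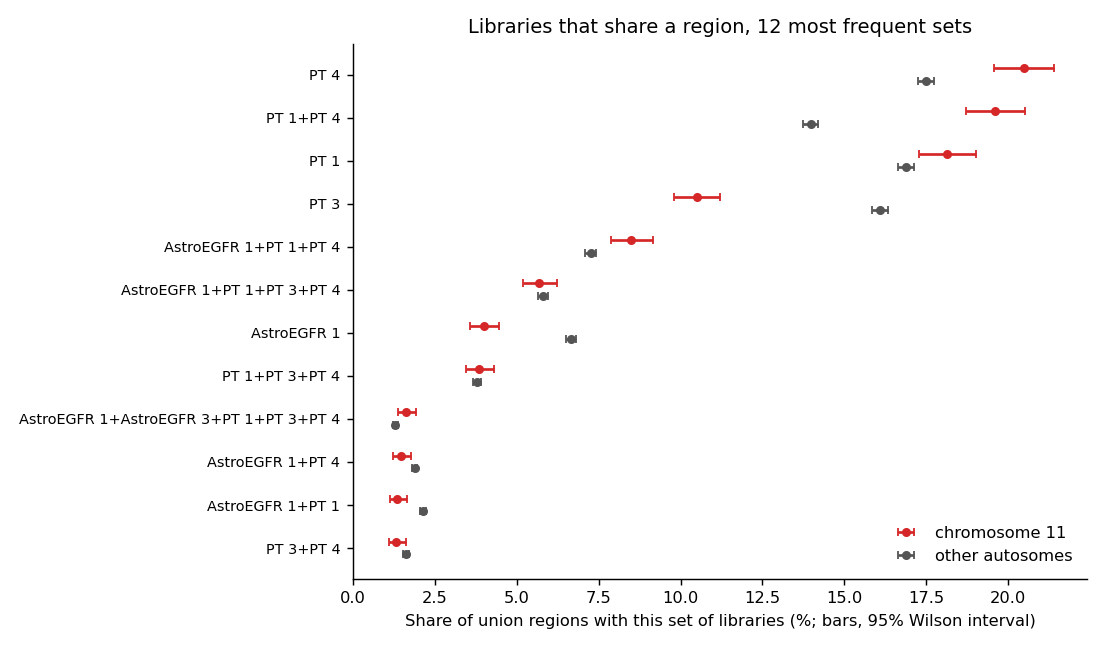
Share of union regions (x axis, %) with each of the 12 most frequent sets of libraries (y axis), for chromosome 11 in red and the other autosomes in grey, with 95% Wilson intervals that cover counting error only. PT 1 with PT 4 lies at 19.6% against 14.0% and PT 3 alone at 10.49% against 16.1%.

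Seen from each list, a larger share of the AstroEGFR peaks overlapped peaks of PT 1 and PT 4 on chromosome 11 than elsewhere. Of the 2514 peaks of AstroEGFR 1, 80.5% (78.9 to 82.0) overlapped a peak of PT 1, against 69.3% on the other autosomes, and 79.9% overlapped PT 4, against 67.8%. In PT 3 the figures were 34.6% and 34.2%, so the excess did not extend to that list. Of the 316 peaks of AstroEGFR 3, 83.9% were found in PT 1 (against 67.9%), 82.9% in PT 4 (against 68.7%) and 71.2% in PT 3 (against 66.7%). In the reverse direction, 31.6% of the peaks of PT 1 were found in AstroEGFR 1 (against 35.1%) and 30.7% of those of PT 4 (against 34.5%). In AstroEGFR 3, by contrast, 3.72% of the peaks of PT 1 (against 3.26%) and 3.40% of those of PT 4 (against 3.20%) were found. On chromosome 11, PT 1 and PT 4 thus held a larger share of peaks that AstroEGFR 1 lacked. At the same time they overlapped a larger share of the AstroEGFR 1 peaks. Peaks of PT 1 and PT 4 covered 6.53% and 6.45% of chromosome 11, against 3.38% and 3.25% elsewhere. Overlaps are met more often where coverage is higher. Coverage goes with the density by which the chromosome was chosen, so these shares are not independent of that choice. The part of coverage in them was not tested.

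The Jaccard index, the base pairs in both lists divided by those in either, was highest for PT 1 and PT 4, at 0.546 on chromosome 11 and 0.502 elsewhere. It was 0.329 for AstroEGFR 1 and PT 1, 0.326 for AstroEGFR 1 and PT 4, and 0.203 for AstroEGFR 1 and PT 3. For AstroEGFR 1 and AstroEGFR 3 it was 0.0615, and for AstroEGFR 3 and PT 3 it was 0.0953 against 0.0490 elsewhere. Pairs of the same stage averaged 0.239 and pairs of different stages 0.171, whereas pairs of the same set of lists averaged 0.324 and pairs across sets 0.115. These averages differed more by set than by stage. This was not particular to chromosome 11, since the other autosomes gave 0.226 and 0.154 by stage and 0.299 and 0.105 by set. The index cannot exceed the shorter covered length divided by the longer, and AstroEGFR 3 covered 0.352 Mb against 7.96 Mb in PT 1. Its pair within a set, with PT 3, was far below the average of such pairs. The part of covered length in the averages was not tested.

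Regions marked in all 3 PT libraries and in neither AstroEGFR library, here called acquired, numbered 288 on chromosome 11. They were 3.86% of its regions (3.44 to 4.32), against 3.78% over all autosomes, and the chromosome ranked 7 of 19 in this share. The share of acquired regions was thus near the background. They had a median width of 1947 bp, between 716 and 9509 bp. The median percentile of their best peak was 73.4 in PT 1 and 69.0 in PT 4 but 48.2 in PT 3. The count rested on AstroEGFR 1 and PT 3, since it was 725 without AstroEGFR 1 (9.83%, against 10.1% over all autosomes) and 1769 without PT 3 (26.1%, against 21.5%).

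Acquired regions ranged from direct neighbours of AstroEGFR peaks to regions far from any. Of the 288, 47 (16.3%) lay within 1 kb of an AstroEGFR peak and 120 (41.7%) within 5 kb, while 40 (13.9%) were more than 100 kb away. The median distance was 8601 bp and the largest 772346 bp. These distances were not computed for the other autosomes. AstroEGFR peaks were denser on chromosome 11 than elsewhere, so the shares cannot be read as particular to this chromosome.

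The 5 strongest acquired regions, ranked by the lowest percentile of their best peak over the PT libraries, included near and distant ones. The first was chr11:119090341-119097458, 7118 bp wide and 72719 bp from the nearest AstroEGFR peak, with best peaks at percentile 97.5, 95.3 and 97.5 in PT 1, 3 and 4. Next was chr11:117346933-117351049, 3066 bp from an AstroEGFR peak, with percentiles of 92.6, 95.8 and 89.7. The first was above percentile 90 in all 3 PT lists, and the second in PT 1 and PT 3. The others were chr11:98920081-98922193, 7097 bp from an AstroEGFR peak with a lowest percentile of 88.2, chr11:11583702-11585727, 130046 bp away with 87.2, and chr11:95983917-95986635, 479 bp away with 86.8. The fourth of them lay in the sparse proximal part, close to the longest empty stretch, and the last lay just before the densest bin.

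Regions marked in both AstroEGFR libraries and in no PT library numbered 2 on chromosome 11, or 0.0268% of its regions, against 0.0232% over all autosomes. These were chr11:119401000-119403078, with best peaks at percentiles 68.3 in AstroEGFR 1 and 68.9 in AstroEGFR 3, and chr11:67407049-67409661, with percentiles 84.4 and 35.1. Such regions could only be as many as the short list of AstroEGFR 3 allowed. Without that library, 301 regions were marked in AstroEGFR 1 and in no PT library (4.04%, against 6.51% over all autosomes), and without AstroEGFR 1 there were 26 marked in AstroEGFR 3 and in no PT library (0.352%, against 0.540%).

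Regions marked in all 5 libraries numbered 121, which was 1.62% of the regions of chromosome 11 (1.36 to 1.93), against 1.32% over all autosomes, and the chromosome ranked 4. They held 65.8% of the chromosome 11 peaks of AstroEGFR 3 (against 53.3% elsewhere), 14.6% of those of AstroEGFR 1 (against 9.83%) and 15.7% of those of PT 3 (against 9.97%). In PT 1 and PT 4 they held 4.13% and 4.30%, close to the 4.25% and 4.21% of the other autosomes. Their best peaks had median percentiles of 91.7, 71.8, 98.1, 93.2 and 98.3 in the order AstroEGFR 1, AstroEGFR 3, PT 1, PT 3 and PT 4. Taking the best of several peaks in a wide region raises this value by construction. Over all peaks in these regions the medians were 78.7, 60.2, 93.1, 73.7 and 94.3 in the same order. On the other autosomes they were 78.6, 58.6, 87.4, 75.5 and 89.4, so PT 3 stood lower on chromosome 11. Without AstroEGFR 3, 545 regions were marked in all remaining libraries (7.32%, against 7.12% over all autosomes), so the count rested on the short list.

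Beside the 3 regions at the start of the chromosome, the strongest of those shared by all were chr11:88828690-88832747 and chr11:98171675-98200267. The first, 4058 bp wide, was covered to 88.8% and 77.4% in AstroEGFR 1 and 3, and 93.6%, 78.2% and 100% in PT 1, 3 and 4. The second, 28593 bp wide, was covered to 95.6%, 32.4%, 99.3%, 86.6% and 100%. It was 1 peak in PT 1 and PT 4 and 8 peaks in AstroEGFR 3 and PT 3. As in the densest bin, AstroEGFR 3 held only part of a broad domain that the other lists held nearly whole.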

How the data were processed

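H3K27me3 chromatin immunoprecipitation and sequencing was deposited as 1 peak list per library (AstroEGFR 1 and 3, PT 1, 3 and 4); 3 input libraries were not analysed here. Per the submitters' processing notes, Bowtie 0.12.9, MACS 1.4.1 and mm9 were used, with peaks called by the authors library by library. The deposited score of each peak is the authors' value. Whether it is a log-transformed p-value is not given in the sources used here, and it was used only to rank peaks within a list. Its lowest value lay between 70.05 and 75.69, and the strongest peaks shared 3100. The use of input and the number of reads are not given in the sources used here. Depth is unknown, and it limits how many peaks pass the threshold.

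Python 3.11.15 with pandas 2.3.3 was used. Peaks were placed in 1 Mb bins by midpoint, starting at position 1. Spans ran to the last peak in any list. Union regions were merged where peaks overlapped or touched, and shares carry 95% Wilson intervals (scipy 1.17.1), which cover counting error only. The library was the unit: groups were compared by exact permutation over the 10 splits, and chromosome 11 with the other autosomes by exact sign-flip permutation over 32 flips, both two-sided, with Benjamini-Hochberg adjustment (statsmodels 0.14.6) over 6 tests. The code that classifies regions was run on simulated data for the 5 lists, where 100% of 6000 regions fell in their class. The simulated regions held single peaks placed far apart, which could neither merge with neighbours nor break into fragments. The simulation therefore checks the code and cannot show how well crowded or fragmented peaks are classified.

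Named bins were the 5 densest, the 5 sparsest with a peak and, among bins without overlap between the groups, the 5 with the largest difference in each direction. Named regions were the 5 marked in all libraries, the 5 acquired and up to 5 lost with the highest lowest percentile, and the widest peak of each library. The chromosome, rules and tests were chosen with earlier results of these data known. Alternatives were filters on score, equal numbers of peaks, other overlap, merging, bins and background chromosomes, omitted libraries and a replicate block. Gene counts per chromosome came from the RefSeq table of GRCm38.p6. Its coordinates were not used, and neither genes nor sequences were assigned to peaks.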

Additional observations from a re-analysis of the deposited data

How the results depend on the processing

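The number of reads is unknown, so depth, immunoprecipitation yield and stage cannot be told apart in any count of peaks. The mean density ratio of chromosome 11 stayed between 1.64 and 1.78 under the score filter, the upper 50% of each list, equal numbers of peaks, other background chromosomes and omission of the chromosome start, and was 1.02 per protein-coding gene. The higher median percentile and the greater width on chromosome 11 kept their direction under every alternative run, from 0.724 points with equal numbers of peaks to 3.24 points with scores of at least 100. The 4 differences between the stages had no stable sign. With equal numbers of peaks they were 1.06 points for the share of peaks, 0.633 for covered length and -0.0414 for the percentile. The percentile difference was -0.323 with scores of at least 100 and -0.355 in the upper 50% of each list. With 1 library left out, the ranges were -0.874 to 0.481 for peaks, -2.22 to 0.910 for covered length, -0.647 to 1.496 for the percentile and -0.0133 to 0.0313 for the log2 width ratio. Alternatives chosen after seeing the data were omission of the chromosome start (covered length 0.303), omission of the densest bin (peaks 0.196), the share of peaks of at least 10 kb without the chromosome start, and the scaling per gene.

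Replicates 1 and 3 share numbers across the groups, and the labels do not say that a number marks a shared culture. With a replicate block of these 2 pairs, without PT 4, the differences were -0.688 for peaks, -1.17 for covered length, -0.438 for the percentile and -0.0011 for width, and 382 regions were acquired (5.12%, against 5.54% over all autosomes) and 2 lost (0.0268%, against 0.0384%); only the percentile and width changed sign. Deviations of same-numbered libraries from their group means over the 122 bins of chromosome 11 had a Spearman coefficient of 0.153. The deviations of the 2 AstroEGFR libraries are mirror images of each other, so the 2 pairs are not independent. The coefficient therefore cannot decide whether a number marks a shared culture.

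Shares over all autosomes stand in parentheses after each share of chromosome 11. Acquired regions numbered 156 with scores of at least 100 or 2.95% (3.17%), 136 in the upper 50% of each list or 3.46% (3.70%), 19 with equal numbers of peaks or 2.95% (2.16%), and 309 to 1769 with 1 library left out or 4.15 to 26.1% (4.02 to 21.5%). Lost regions numbered 1, 1 and 0 under the first 3 settings (0.0104%, 0.0284% and 0.564% over all autosomes), 1 when at least 25% of a region had to be covered (0.0232%), and 2 to 301 with 1 library left out or 0.0295 to 4.04% (0.0461 to 6.51%). Regions of all libraries numbered 67, 69 and 43 or 1.27%, 1.76% and 6.69% (0.970%, 1.39% and 4.93%), 28 with 25% covered or 0.375% (0.308%), and 122 to 545 with 1 library left out or 1.83 to 7.32% (1.48 to 7.12%). Bins without overlap numbered 13 with equal numbers of peaks or 10.7% (9.29%), 63 in bins of 0.5 Mb or 25.8% (19.6%), 18 in bins of 2 Mb or 29.5% (25.3%), and 38 to 79 with 1 library left out or 31.1 to 64.8% (26.5 to 58.7%). PT stood higher in 64.7% of these bins in the report and in 55.2% (without AstroEGFR 3) to 81.8% (by covered base pairs) under the alternatives, with 61.5% for equal numbers of peaks and 75.6% for the upper 50% of each list. The cause of these changes was not tested, apart from the smaller number of peaks or libraries that the settings leave by construction. Peaks at transcription start sites, with all alternatives planned for them, were not run, since annotation of mm9 was not used here.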
